A study of Mus musculus with 19 samples.

Results

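The epithelia of mice with YAP alone were compared with those of mice with E6-E7 alone, gene by gene, in the tongue. The mice were chosen by the genotype in their labels and come to 8 of the 19 mice of the series, 3 Y mice and 5 E mice. Genes entered the comparison when they reached 0.1 TPM (transcript reads scaled for gene length and library size) in 3 or more of these 8 mice, which 20721 of the 24689 genes of the table did.

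Bulk RNA was sequenced from whole tongue epithelium 15 days after the transgenes were switched on, and the question addressed here is how the effects of the 2 oncogenic drivers differ when each acts by itself. E mice carried Krt14-CreERT, LSL-rtTA and tetON_E6-E7, and Y mice carried Krt14-CreERT, LSL-rtTA and tetON_YAP1S127A. The 6 EY mice carried both effectors, and the 5 N mice were controls, of which 3 had Krt14-CreERT with LSL-rtTA, 1 had LSL-rtTA without the Cre, and 1 had the Cre and both effectors without rtTA. Per the methods of the study the animals were littermates of 8 to 16 weeks that also carried an H2B-GFP reporter, tamoxifen was injected into the tongue to open the rtTA cassette, and doxycycline food then turned on the effectors. The Krt14 promoter limits the switch to basal keratinocytes and the cells they give rise to, the share of cells that switched is not given for these mice, and the table has no entry for the transgenes themselves. The epithelium was taken off with collagenase and dispase, so RNA of other cells can remain, and in bulk tissue fewer cells of a type and less RNA per cell cannot be told apart.

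YAP is a transcriptional co-activator that binds TEAD factors on DNA, and the kinases of the Hippo pathway hold it in the cytoplasm by phosphorylation. The S127A form escapes that control. The E6 protein of HPV16 leads p53 to degradation and the E7 protein inactivates the Rb family, which frees E2F factors to transcribe genes of DNA synthesis. The tongue surface is a stratified squamous epithelium whose filiform papillae make hair-type keratins, loricrin-like envelope proteins and other cornified products.

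The libraries differed in sex as well as in genotype, although the methods of the study describe groups balanced for sex. Xist, the RNA of the inactive X chromosome, measured 222, 0.0278 and 254 TPM in Y1, Y2 and Y3 and 0, 0.113, 0.0288, 0.0584 and 0 TPM in E1 to E5, and values in these orders are used throughout. Y1 and Y3 therefore had the female pattern and lacked the Y-linked genes Ddx3y, Uty and Kdm5d, which were present in Y2 and in all 5 E mice. Among the other mice, 2 of 5 N and 1 of 6 EY mice had high Xist. Genotype and sex are thus partly joined in this comparison, and Y2, the Y mouse of the same sex as the E mice, is given separately where this matters.

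Epithelia with YAP differed from epithelia with E6-E7 in 581 of the 20721 genes, 2.8% of those tested, with 385 higher in Y (1.86%) and 196 lower (0.946%). A gene was called when limma gave an adjusted p below 0.01 and an absolute log2 difference above 1, always with n = 3 Y and n = 5 E mice and a variance taken over all 19 mice, and differences are Y minus E on log2(TPM + 0.1), which understates the change of genes near 0. With a variance from only the 8 mice compared, 223 genes were called (137 higher, 86 lower). Errors after ± are standard errors. An unadjusted p below 0.05 was reached by 25.2% of all genes tested, which is the share to hold beside such counts for lists below. In 576 of the 581 no Y mouse overlapped any E mouse, whereas among all genes tested 12.1% lay higher and 7.02% lower in Y without overlap. Y2 lay above all 5 E mice in 384 of the 385 higher genes and below all 5 in 196 of the 196 lower genes, beside 26.5% and 20.9% of all genes tested. These counts do not separate sex from genotype, since Y2 took part in the calls. The median over all genes tested was 0.05. Larger differences also leaned to Y, with 55 genes higher and 20 lower by more than 3 on the log2 scale. The share of called genes that were higher in Y was 66.3%, but 55.3% after median-of-ratios scaling of the mice and 56.1% with voom, so the lean depends on scaling.

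**Figure D1:**
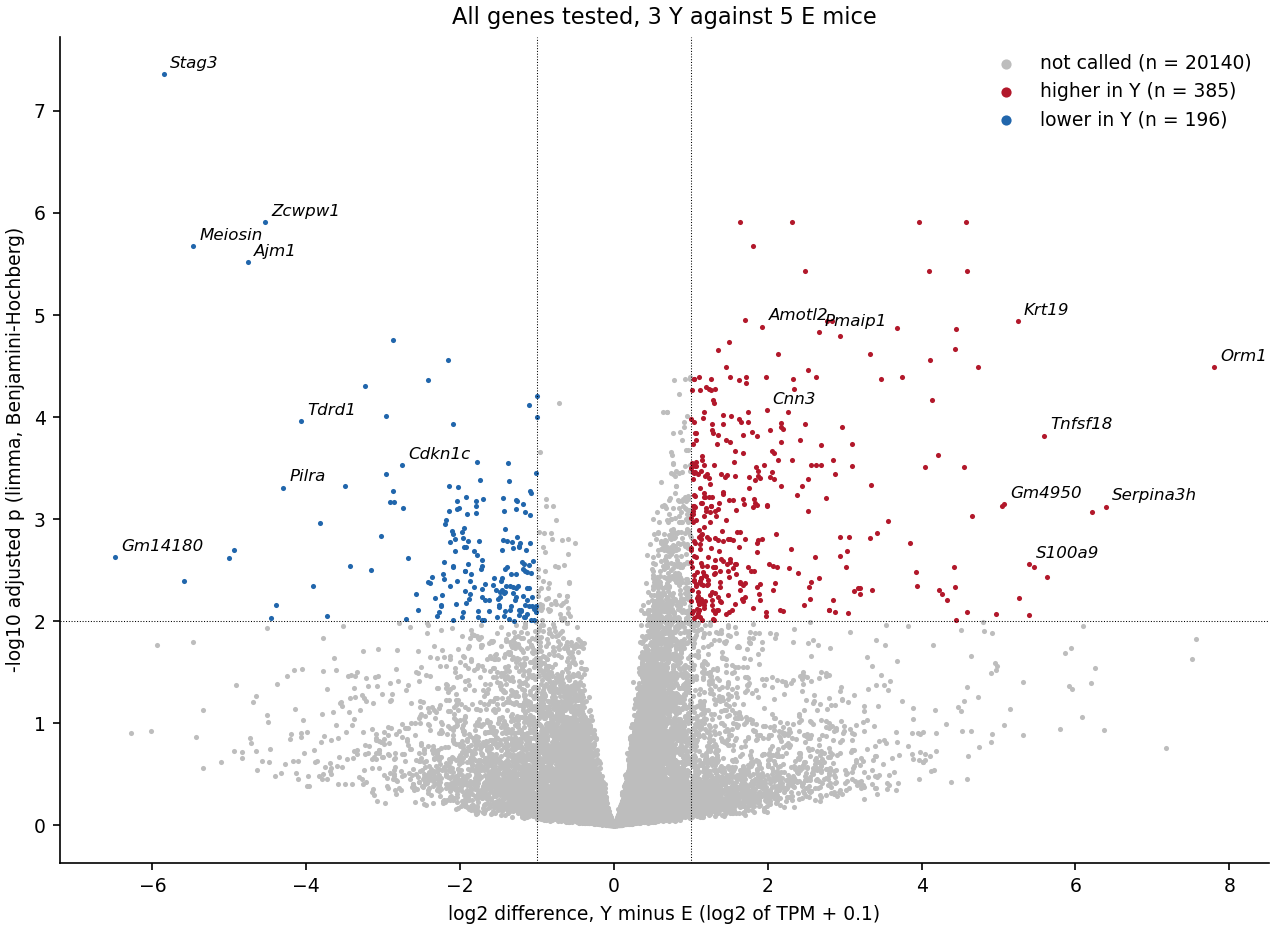
Each point is a gene, with the log2 difference Y minus E on the horizontal axis and minus log10 of the adjusted p on the vertical axis (3 Y and 5 E mice). The 385 genes higher in Y are red, the 196 lower are blue, dotted lines mark the limits, and Stag3 has the smallest adjusted p.

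On the first principal component of the 500 most variable genes, which held 21.2% of the variance, all 3 Y mice lay on the opposite side of 0 from all 5 E mice (exact permutation test on the scores, two-sided p = 0.0357, the smallest that 3 against 5 mice can give). Y2, without Xist, had a score of 24.8 and lay nearest to the E mice, against 50.9 for Y1 and 44.2 for Y3. The component does not separate sex from genotype.

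Genes of meiosis were among the largest decreases, and Stag3 had the smallest adjusted p of all genes tested. Stag3, a cohesin subunit of meiotic chromosomes, measured 0.0449, 0.178 and 0.244 TPM in Y and 7.85, 11.5, 16.7, 15.4 and 21.5 TPM in E. Meiosin, a transcriptional activator that starts the meiotic program, measured 0.0746, 0.131 and 0.0676 TPM in Y and 3.40, 5.97, 9.25, 14.7 and 13.99 TPM in E. Zcwpw1, a histone reader of meiotic recombination sites, measured 0.207, 0.602 and 0.300 TPM in Y and 6.35, 10.01, 11.7, 11.1 and 13.1 TPM in E. Every E mouse stood above every Y mouse for all 3 genes, and the Y mice were close to the detection floor. The 12 largest decreases and 12 largest increases were named only among called genes without overlap, so for them that separation is no further result. The log2 differences were -5.86 ± 0.33 for Stag3 (adjusted p = 4.4e-08), -5.47 ± 0.45 for Meiosin (adjusted p = 2.1e-06) and -4.54 ± 0.35 for Zcwpw1 (adjusted p = 1.2e-06). Tdrd1, which acts in the piRNA pathway of germ cells, measured 0.263, 0 and 0.0895 TPM in Y and 1.51, 2.75, 3.73, 3.57 and 4.95 TPM in E (log2 difference -4.06 ± 0.51, adjusted p = 1.1e-04). Smc1b, the meiotic form of an SMC cohesin subunit, was lower in Y as well, at 0.0429, 0 and 0 TPM in Y and 0.651, 0.847, 1.13, 0.944 and 1.35 TPM in E (log2 difference -3.23 ± 0.37, adjusted p = 5.0e-05). Low values in both N and Y and high values in both E and EY marked these genes. Stag3 ranged from 0.168 to 0.438 TPM in N and had a lowest, median and highest value of 15.9, 20.2 and 25.3 TPM in EY.

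Of 33 listed meiosis and germline genes, 22 were in the table and 14 passed the filter. Smc1b passed it only through the E mice, and Stag3, Tdrd1, Rec8 and Mei1 also needed E mice to pass. The change itself thus partly decides membership, the counts and the median, and the values describe the tested members only. Of these 14, 4 were lower in Y and 0 higher (limma, with 6 at an unadjusted p below 0.05). The median of the 14 was -1.07 beside 0.05 for all genes. That median ran from -4.06 to -0.37 over the alternatives, lowest with a filter of 1 TPM and highest with a pseudocount of 1 TPM. The other 10 tested members were not called. Rec8, another meiotic cohesin subunit, measured 0.196, 0 and 0 TPM in Y and 2.16, 2.91, 0.896, 0.454 and 0.256 TPM in E and missed the threshold (log2 difference -2.88 ± 0.92, adjusted p = 0.0518). Mei1 missed it too (log2 difference -1.78 ± 0.44, adjusted p = 0.0140). Meiosin is not on that list and was named by its size. A further 3 germline genes were chosen after their values were seen, so they add no support for the group. Iho1, a factor for meiotic double-strand breaks, was at 0 in all Y mice and at 0.484, 0.755, 0.981, 0.699 and 0.378 TPM in the E mice. Rbm46 was at 0 in all Y mice and at 0.460, 0.726, 0.420, 0.954 and 0.687 TPM in the E mice. Ddx43 measured 0.0259, 0.114 and 0.258 TPM in Y and 0.768, 1.09, 2.42, 1.42 and 2.62 TPM in E. The E mice were above the Y mice without overlap in each of the 3, and Iho1 and Rbm46 passed the filter only through the E mice.

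Among these genes 2 sit beside another called gene, by the gene order of GRCm38.p6. Of all 545 called genes that could be placed, 92 adjoin another called gene of the same direction. Zcwpw1 adjoins Pilra, a receptor of myeloid cells, which measured 0.151, 0.0887 and 0.866 TPM in Y and 4.82, 6.24, 8.19, 6.86 and 9.495 TPM in E (log2 difference -4.30 ± 0.65, adjusted p = 4.9e-04). Stag3 adjoins Gpc2, a glypican named here after its values were seen, which measured 1.02, 1.20 and 1.23 TPM in Y and 4.92, 3.26, 4.15, 4.84 and 6.91 TPM in E (log2 difference -1.94 ± 0.40, adjusted p = 0.00505). Both neighbours were lower in every Y mouse than in any E mouse. Pilra was named among genes without overlap and Gpc2 after its values were seen, so this separation is no further result.

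**Figure D2:**
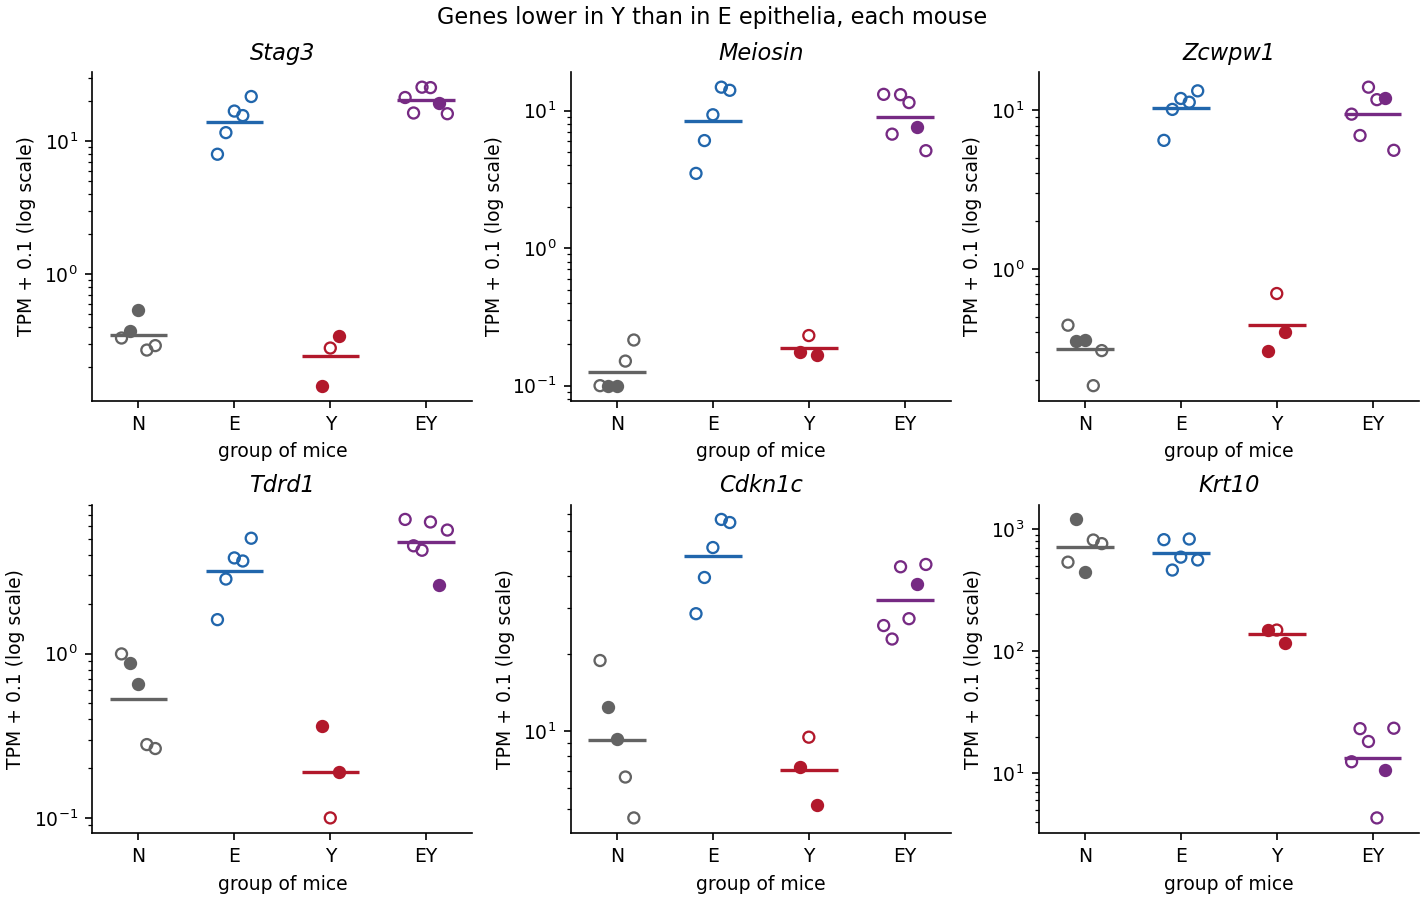
Each circle is a mouse and each bar the mean on the log scale, for N (n = 5), E (n = 5), Y (n = 3) and EY (n = 6), with TPM + 0.1 on a log axis; filled circles are mice with Xist, open circles mice without it. Stag3, Meiosin, Zcwpw1, Tdrd1 and Cdkn1c are low in N and Y and high in E and EY, while Krt10 is lower in Y than in E and lowest in EY.

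Other large decreases were of varied kinds. Ajm1, a protein of apical junctions, measured 0.114, 0.1002 and 0.103 TPM in Y and 3.80, 5.21, 4.26, 7.70 and 7.42 TPM in E (log2 difference -4.76 ± 0.40, adjusted p = 3.0e-06). The crystallin gene Cryba2 measured 0, 0.198 and 0 TPM in Y and 16.7, 7.07, 3.49, 0.625 and 5.28 TPM in E (log2 difference -4.94 ± 0.90, adjusted p = 0.00199). The predicted genes Gm14180 and Gm52952 shared its shape. Gm14180 measured 0, 16.5 and 0 TPM in Y and 78.2, 25.2, 42.8, 69.5 and 48.9 TPM in E and Gm52952 measured 0, 1.58 and 0 TPM in Y and 4.08, 27.3, 7.36, 7.88 and 5.45 TPM in E. For these 3 genes Y1 and Y3 were at 0 while Y2 kept some signal, and the EY mice were at or near 0, with a highest value of 0.694 TPM for Gm52952. An immunoglobulin variable segment, Ighv1-62, was listed at 0 in all Y mice and at 1.23, 7.25, 7.38, 5.98 and 5.61 TPM in the E mice, and Gm49768 and Gm49201 were also listed at 0 in all Y mice, against 2.15, 3.38, 2.58, 0.873 and 2.46 TPM and 4.94, 3.50, 0.595, 0.603 and 4.52 TPM in the E mice. Genes at 0 in all Y mice passed the filter only through the E mice. Reads of such predicted genes and gene segments are uncertain where near copies exist.

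Regulators of G1 were called in both directions. Cdkn1c, the CDK inhibitor p57, measured 7.18, 9.37 and 5.06 TPM in Y and 28.5, 39.4, 51.6, 66.3 and 64.5 TPM in E (log2 difference -2.76 ± 0.39, adjusted p = 3.0e-04). Ccnd1, which encodes cyclin D1, measured 139, 153 and 147 TPM in Y and 59.9, 62.4, 47.6, 76.1 and 31.4 TPM in E (log2 difference 1.46 ± 0.24, adjusted p = 0.00102). Its kinase partner gene Cdk6 measured 2.42, 3.16 and 3.70 TPM in Y and 0.997, 1.17, 0.720, 0.804 and 0.811 TPM in E (log2 difference 1.67 ± 0.22, adjusted p = 1.5e-04). Cdkn1c was thus high in E and the cyclin D1 and Cdk6 genes were high in Y, with no overlap of the mice in any of the 3. These were the 3 called genes among the 28 tested E2F factors, pocket proteins and G1 regulators (2 higher, 1 lower), whose median was -0.28. Cdk2, the kinase partner of cyclin E, measured 29.2, 29.7 and 31.2 TPM in Y and 35.99, 56.5, 54.8, 61.1 and 51.4 TPM in E (log2 difference -0.77 ± 0.15, adjusted p = 0.00287) and fell short of the limit on the difference, as did Cdkn2c, which encodes the INK4 inhibitor p18 (log2 difference -0.82 ± 0.18, adjusted p = 0.00681). Ccne2 measured 11.3, 15.04 and 14.4 TPM in Y and 12.7, 29.8, 30.3, 31.02 and 35.95 TPM in E, with overlap at E1, and missed the threshold (log2 difference -0.96 ± 0.27, adjusted p = 0.0269).

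In the DNA replication list 35 of 40 genes were below 0, with a median of -0.30, and only 1 was called. That gene was Prim1, the small primase subunit, at 14.2, 17.9 and 21.04 TPM in Y and 21.6, 35.9, 41.1, 40.2 and 50.9 TPM in E (log2 difference -1.06 ± 0.23, adjusted p = 0.00706). The call was lost with Xist as a covariate, where the difference was -1.20, and without any 1 of several mice. Gins2, part of the replicative helicase, measured 10.3, 15.8 and 15.5 TPM in Y and 24.02, 23.98, 27.01, 33.02 and 23.6 TPM in E (log2 difference -0.93 ± 0.21, adjusted p = 0.00744). The mice did not overlap for either gene, and E1 was the E mouse nearest to Y for Prim1. In the mitosis list 25 of 29 genes were above 0, with a median of 0.24, and 0 of them were called by limma (8 at an unadjusted p below 0.05). Ect2, which drives cytokinesis, was the mitosis gene with the largest difference, at 6.75, 9.33 and 10.95 TPM in Y and 2.91, 4.72, 4.59, 6.18 and 4.38 TPM in E (log2 difference 0.98 ± 0.22, adjusted p = 0.00779). In the replication-dependent histone list 1 of 52 genes was called, H4c12, at 4.64, 2.04 and 2.10 TPM in Y and 28.2, 8.33, 19.08, 25.8 and 16.1 TPM in E (log2 difference -2.68 ± 0.50, adjusted p = 0.00238, lost with Xist as a covariate and with voom). The median of that list lay on the other side of 0, at 0.68, with 32 genes above 0. The libraries were selected for polyA, which most histone transcripts lack. Rad51c, of homologous recombination, was the called member of the 26 repair genes tested (log2 difference -1.27 ± 0.26, adjusted p = 0.00475). That call was lost with Xist as a covariate, at a difference of -1.38, and without any 1 of the Y mice, and the list had 17 genes above 0 and a median of 0.10.

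The known p53 target genes that were called were higher in Y. Plk2 measured 418, 294 and 348 TPM in Y and 47.99, 69.7, 82.9, 68.8 and 82.9 TPM in E (log2 difference 2.34 ± 0.27, adjusted p = 5.3e-05). Pmaip1, which encodes the BH3-only protein Noxa, measured 64.9, 78.04 and 66.5 TPM in Y and 7.63, 17.04, 9.66, 9.70 and 12.7 TPM in E (log2 difference 2.66 ± 0.26, adjusted p = 1.5e-05). Ccng1, for cyclin G1, measured 129, 107 and 106 TPM in Y and 35.7, 51.3, 63.3, 40.4 and 50.4 TPM in E (log2 difference 1.26 ± 0.20, adjusted p = 7.4e-04). All Y mice were above all E mice for each. In the list of 23 tested targets 3 were higher and 0 lower, and the median was 0.34. Against N the list median was 0.68 in Y and 0.27 in E, beside 0.17 and 0.09 for all genes tested. The E mice were thus not below N for these targets. E minus N was 1.56 for Pmaip1, 0.27 for Plk2 and 0.21 for Ccng1. Trp53 itself measured 28.2, 20.5 and 27.4 TPM in Y and 24.5, 25.04, 25.9, 23.9 and 18.5 TPM in E, with full overlap (log2 difference 0.10 ± 0.17, adjusted p = 0.777, a direction that flips with quantile normalization). Rb1 measured 2.81, 2.84 and 3.04 TPM in Y and 3.16, 3.73, 4.11, 4.89 and 5.28 TPM in E and was not called (log2 difference -0.51 ± 0.16, adjusted p = 0.0525), although the groups did not overlap. Cdkn2a, whose product p16 is a known marker of Rb loss, measured 0.143, 0 and 0.0324 TPM in Y and 0.434, 0.225, 0.817, 0.762 and 0.249 TPM in E and was not called either (log2 difference -1.88 ± 0.58, adjusted p = 0.0425).

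TEAD target genes and members of the Hippo pathway were called in the upward direction only. Amotl2, which encodes a protein that binds and restrains YAP, measured 44.95, 49.1 and 66.96 TPM in Y and 14.5, 15.4, 17.01, 12.98 and 10.2 TPM in E (log2 difference 1.93 ± 0.19, adjusted p = 1.3e-05). Ccn1, which encodes the matricellular protein CYR61, measured 329, 325 and 354 TPM in Y and 121, 63.6, 44.3, 134 and 150.02 TPM in E (log2 difference 1.86 ± 0.33, adjusted p = 0.00173). The receptor tyrosine kinase gene Axl measured 24.1, 15.9 and 21.5 TPM in Y and 7.44, 7.34, 8.37, 5.74 and 7.22 TPM in E (log2 difference 1.48 ± 0.29, adjusted p = 0.00322). Every Y mouse was above every E mouse for these 3 genes. Y2 was within the span of Y1 and Y3 for Amotl2 and the lowest Y mouse for Ccn1 and Axl, and the call of Axl was lost with Xist as a covariate and without Y1 or Y3. Fjx1 (1.11 ± 0.19) and Dock5 (1.01 ± 0.21, a call lost after median-of-ratios scaling) were also called, which makes 5 higher and 0 lower of 21 tested targets, with a median of 0.90. The target most often used as a readout, Ccn2, measured 4.23, 8.62 and 12.3 TPM in Y and 1.86, 2.80, 3.26, 1.24 and 3.10 TPM in E and missed the threshold (log2 difference 1.69 ± 0.64, adjusted p = 0.101).

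Feedback and partner genes of the pathway were among those higher in Y. Wwc2, a scaffold related to Kibra that activates the Hippo kinases, measured 1.58, 1.82 and 2.24 TPM in Y and 0.279, 0.396, 0.423, 0.465 and 0.218 TPM in E (log2 difference 2.14 ± 0.22, adjusted p = 2.4e-05). Vgll3, a co-factor that binds TEAD, measured 3.85, 4.13 and 5.30 TPM in Y and 0.739, 1.20, 1.63, 1.66 and 1.14 TPM in E (log2 difference 1.76 ± 0.27, adjusted p = 4.9e-04). Both were clear of the E mice in all Y mice. Together with Amotl2 they made 3 higher and 0 lower of 27 tested pathway members, with a median of 0.21. Lats2, a kinase that phosphorylates YAP, measured 0.892, 1.27 and 1.55 TPM in Y and 0.685, 0.386, 0.585, 0.467 and 0.328 TPM in E and missed the threshold (log2 difference 1.18 ± 0.28, adjusted p = 0.0109). Tead1 fell short of the limit on the difference (log2 difference 0.96 ± 0.22, adjusted p = 0.00992). The endogenous Yap1 gene measured 9.65, 6.62 and 9.45 TPM in Y and 9.08, 8.59, 9.57, 10.6 and 8.93 TPM in E, with overlap (log2 difference -0.14 ± 0.14, adjusted p = 0.575). Yap1 differed by -0.49 in the mice without Xist. Its paralog Wwtr1, the gene of TAZ, measured 3.14, 3.69 and 4.11 TPM in Y and 3.53, 3.95, 3.75, 2.97 and 3.04 TPM in E (log2 difference 0.08 ± 0.18, adjusted p = 0.833, with a flip of sign after median-of-ratios scaling). Whether reads of the YAP1 transgene could align to Yap1 is not known.

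Since YAP acts through TEAD, promoters were searched for the letters GGAATG on either strand, in the 250 bases before to 50 bases after each RefSeq start on GRCm38.p6. They occur in 12.6% of the 15331 promoters matched to genes tested, in 67 of 332 promoters of genes higher in Y (20.2%) and in 19 of 175 of genes lower in Y (10.9%). Promoters could be matched for 262 of the 385 higher and 142 of the 196 lower genes. In the TEAD target list 7 of 15 promoters held the letters (46.7%), and in the Hippo pathway list 16 of 28 (57.1%). Among lists with genes lower in Y, 4 of 13 Lce1 promoters held them (30.8%). The bases before the start of 6 called genes that hold a match, chosen after their values were seen, are shown 5′ to 3′ on the strand of the gene, with GGAATG or its reverse complement CATTCC in capitals. They lie at chr9:102717554-102717803 (+) for Amotl2, chr3:145649986-145650235 (-) for Ccn1, chr7:25788734-25788983 (-) for Axl, chr8:47990545-47990794 (-) for Wwc2, chr16:65814939-65815188 (+) for Vgll3 and chr1:161494407-161494656 (+) for Tnfsf18. A match describes the letters and does not show binding.
Amotl2: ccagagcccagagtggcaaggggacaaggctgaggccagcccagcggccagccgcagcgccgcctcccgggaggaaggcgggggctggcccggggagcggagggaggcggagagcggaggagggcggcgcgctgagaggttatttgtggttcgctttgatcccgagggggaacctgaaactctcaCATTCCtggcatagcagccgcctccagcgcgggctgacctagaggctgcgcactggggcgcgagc
Ccn1: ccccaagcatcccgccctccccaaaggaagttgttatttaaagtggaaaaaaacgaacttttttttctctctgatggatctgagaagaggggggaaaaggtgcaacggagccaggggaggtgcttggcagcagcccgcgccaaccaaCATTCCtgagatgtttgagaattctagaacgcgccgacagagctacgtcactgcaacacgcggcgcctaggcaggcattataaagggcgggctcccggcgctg
Axl: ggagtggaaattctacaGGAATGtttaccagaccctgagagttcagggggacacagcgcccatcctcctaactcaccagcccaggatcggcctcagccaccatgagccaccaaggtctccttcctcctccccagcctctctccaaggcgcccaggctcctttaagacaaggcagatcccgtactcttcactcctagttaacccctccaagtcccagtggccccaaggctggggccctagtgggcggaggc
Wwc2: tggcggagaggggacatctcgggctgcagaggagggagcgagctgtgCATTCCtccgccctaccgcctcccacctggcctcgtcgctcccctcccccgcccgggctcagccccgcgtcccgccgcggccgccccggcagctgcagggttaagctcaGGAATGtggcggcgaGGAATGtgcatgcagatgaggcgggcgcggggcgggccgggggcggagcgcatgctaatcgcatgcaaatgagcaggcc
Vgll3: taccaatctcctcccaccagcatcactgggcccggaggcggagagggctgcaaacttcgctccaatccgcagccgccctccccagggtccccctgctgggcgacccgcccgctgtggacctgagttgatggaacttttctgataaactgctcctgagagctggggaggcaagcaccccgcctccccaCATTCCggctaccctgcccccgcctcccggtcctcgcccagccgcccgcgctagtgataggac
Tnfsf18: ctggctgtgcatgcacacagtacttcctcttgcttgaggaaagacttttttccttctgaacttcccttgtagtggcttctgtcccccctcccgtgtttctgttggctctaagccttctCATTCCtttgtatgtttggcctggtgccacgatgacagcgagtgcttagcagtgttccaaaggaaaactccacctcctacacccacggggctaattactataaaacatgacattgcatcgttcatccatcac

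Wwc2 holds 3 matches in these 250 bases and the other 5 genes hold 1 each, nearest to the start in Vgll3 (first base at -63) and Amotl2 (-65). For comparison by the same search, an E2F motif (TTTCCCGC, TTTCGCGC, TTTGCCGC or TTTGGCGC, either strand) occurs in 3.62% of the promoters of genes tested and in 14 of 37 promoters of the DNA replication list (37.8%). It occurs in 2 of 19 promoters of the meiosis and germline list and in 5 of the 175 promoters of genes lower in Y (2.86%).

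Orm1, S100a9 and Serpina3h were among the largest increases and were named by their size. No list of acute-phase genes was tested. Of the 15 tested alarmin and antimicrobial genes, 6 were above 0 and 9 below 0. Orm1, which encodes the acute-phase protein orosomucoid, measured 46.8, 121 and 84.3 TPM in Y and 0, 0.539, 0.549, 0.371 and 0.174 TPM in E (log2 difference 7.80 ± 0.84, adjusted p = 3.3e-05), the largest difference among called genes. S100a8 and S100a9 encode the subunits of calprotectin, an antimicrobial protein of neutrophils and of stressed keratinocytes. S100a8 measured 471, 653 and 363 TPM in Y and 20.2, 74.2, 34.9, 5.06 and 21.4 TPM in E (log2 difference 4.42 ± 0.85, adjusted p = 0.00297). S100a9 measured 283, 306 and 157 TPM in Y and 7.27, 10.3, 12.8, 0.433 and 10.96 TPM in E (log2 difference 5.40 ± 1.03, adjusted p = 0.00275). The Y mice lay well clear of the E mice for both, and E4 was the lowest of all. Both calls were lost without any 1 of the Y mice and with only the 8 mice. Lcn2, a siderophore-binding protein, and Defb14, a beta-defensin, were the other called members of the 15 tested alarmin and antimicrobial genes (4 higher, 0 lower, median -0.15). Lcn2 measured 2.79, 14.6 and 14.98 TPM in Y and 0.151, 0.537, 0.182, 0.185 and 0.347 TPM in E (log2 difference 4.60 ± 1.04, adjusted p = 0.00807). Defb14 measured 326, 529.7 and 234 TPM in Y and 88.4, 117, 97.2, 92.3 and 92.4 TPM in E (log2 difference 1.82 ± 0.36, adjusted p = 0.00321). Y1 was the lowest Y mouse for Lcn2 and Y3 for Defb14. The serpin gene Serpina3h measured 53.2, 54.3 and 39.4 TPM in Y and 0.190, 2.25, 0.915, 0.348 and 0.109 TPM in E (log2 difference 6.39 ± 1.03, adjusted p = 7.5e-04). Reads of the Serpina3 family are uncertain because its members are near copies.

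Some chemoattractant genes were higher in Y as well, but of the 31 chemokine ligands tested 16 were above 0 and 15 below 0. Cxcl1, which draws neutrophils, measured 37.3, 97.3 and 72.5 TPM in Y and 0.292, 10.4, 4.22, 2.50 and 7.03 TPM in E (log2 difference 4.33 ± 0.93, adjusted p = 0.00622). Ccl20, the ligand of CCR6 on dendritic cells and lymphocytes, measured 12.01, 10.1 and 40.8 TPM in Y and 0.456, 0.270, 0.549, 0.835 and 1.04 TPM in E (log2 difference 4.66 ± 0.77, adjusted p = 9.2e-04). Cxcl16 measured 89.9, 117 and 125 TPM in Y and 18.5, 30.9, 21.4, 15.6 and 31.97 TPM in E (log2 difference 2.26 ± 0.28, adjusted p = 8.9e-05). Y3 held the highest Ccl20, and no Y mouse overlapped the E mice for any of the 3 chemokines. They were the only called genes of 31 chemokine ligands tested (3 higher, 0 lower, median 0.18, which turns negative without Y3, without E4, in the mice without Xist and with a pseudocount of 1 TPM). Among 23 cytokines tested 2 were higher and 0 lower, with a median of 0.62. Among these was Il24, at 2.81, 11.5 and 21.5 TPM in Y and 0, 3.49, 0, 0 and 0 TPM in E, where E2 overlapped Y1 (log2 difference 5.46 ± 1.05, adjusted p = 0.00292). The other was Il1rn, the interleukin-1 receptor antagonist (log2 difference 1.21 ± 0.18, adjusted p = 3.6e-04). Tnfsf18, the ligand of the T cell receptor GITR, measured 36.3, 10.2 and 7.18 TPM in Y and 0.206, 0.0609, 0.806, 0.189 and 0.0590 TPM in E (log2 difference 5.59 ± 0.74, adjusted p = 1.5e-04). In EY mice the lowest, median and highest Tnfsf18 values were 4.83, 10.1 and 33.8 TPM.

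**Figure D3:**
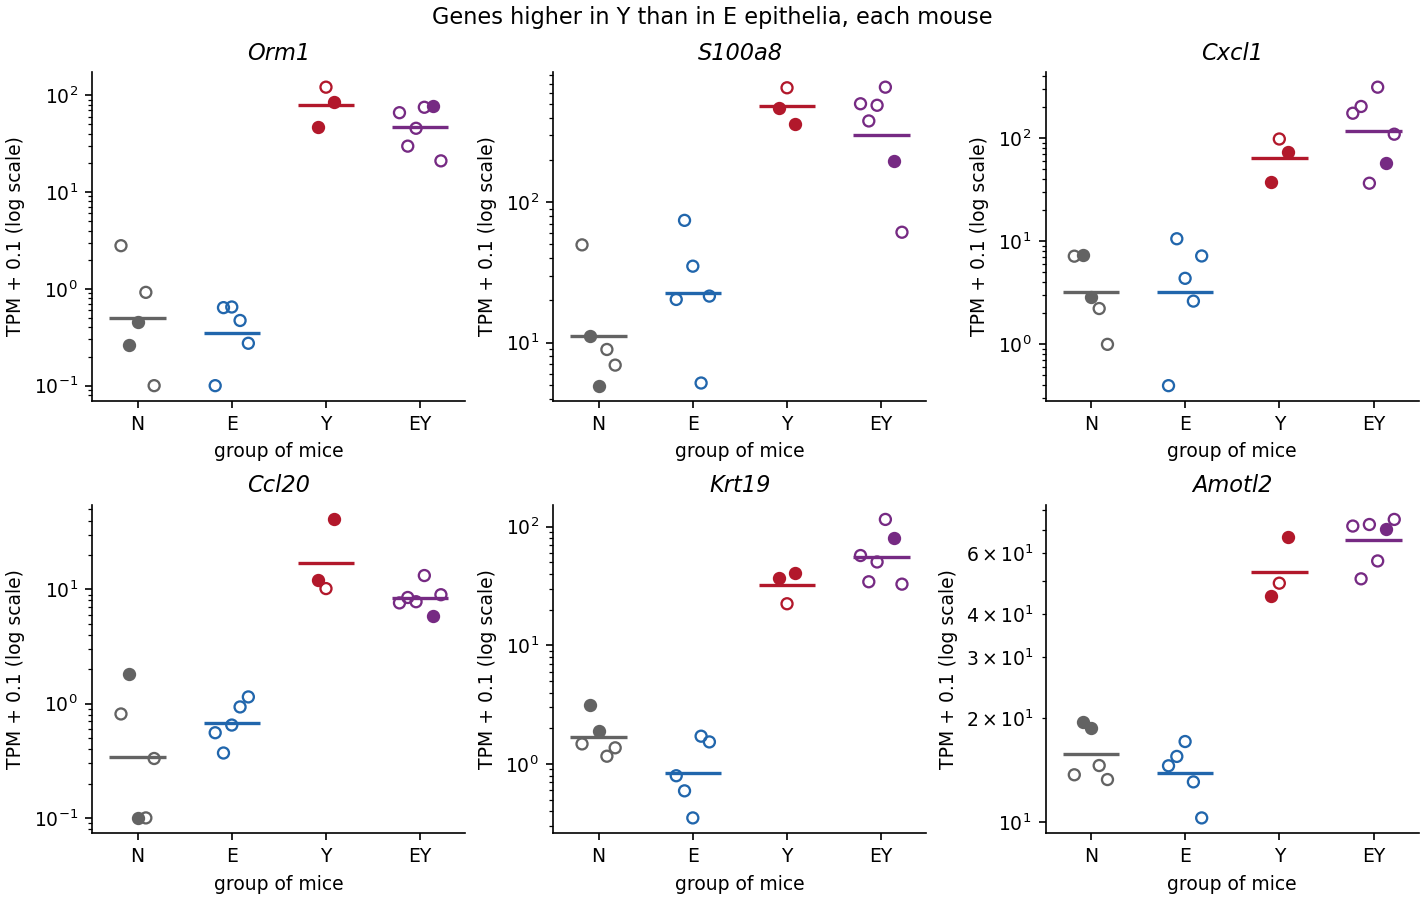
Circles are mice and bars means on the log scale for N (n = 5), E (n = 5), Y (n = 3) and EY (n = 6), on a log axis of TPM + 0.1; filled circles are mice with Xist. For Orm1, S100a8, Cxcl1, Ccl20, Krt19 and Amotl2 all Y mice, with or without Xist, lie above all E mice, and the N mice lie near the E mice.

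Marker lists of other cell types are given beside these results. The neutrophil list had 2 of 7 tested genes higher in Y, S100a8 and S100a9, and its summed level was 769.6, 961 and 545 TPM in the Y mice and 33.8, 86.6, 50.1, 5.80 and 40.3 TPM in the E mice. S100a8 supplied 65.9% of that sum, S100a9 most of the rest in the Y mice, and the defining marker Ly6g was at 0 in all 8 mice. The median of the neutrophil list was 1.20, and -1.12 in the mice without Xist. The fibroblast list, with Dcn most abundant, summed to 38.8, 53.1 and 44.7 TPM in the Y mice and 104, 94.8, 75.9, 63.8 and 119.9 TPM in the E mice, all E mice above all Y mice, and 0 of its 10 genes were called by limma (0 at an unadjusted p below 0.05). The myeloid list, with Lyz2 most abundant, summed to 129.6, 71.4 and 133 TPM in the Y mice and 318, 233, 266, 44.6 and 590.1 TPM in the E mice, with 0 of 9 called (1 at an unadjusted p below 0.05). The skeletal muscle list, with Acta1 most abundant, summed to 32.4, 249 and 58.2 TPM in the Y mice and 59.99, 41.5, 58.05, 29.9 and 199 TPM in the E mice, highest in Y2 and E5. The 10 epithelial markers, led by Krt13, summed to 106901, 57955 and 83326 TPM in the Y mice and 90811, 121856, 115341, 70707 and 103293 TPM in the E mice, so the labelled tissue was present in all. Endothelial, T cell, Langerhans, B and mast, Schwann, taste and red blood cell lists also had 0 called genes in either direction (limma, with 3 at an unadjusted p below 0.05 over the 7 lists). The part of these cells in the differences between Y and E was not tested.

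Genes of the cornified layer differed by cluster. Late cornified envelope genes of the Lce1 group encode small proteins that are cross-linked into the envelope of dying surface cells. Lce1c measured 297, 465 and 299.8 TPM in Y and 1627, 1491, 1332, 1289.6 and 1329.8 TPM in E (log2 difference -2.03 ± 0.31, adjusted p = 4.8e-04). Lce1l measured 159, 255 and 268 TPM in Y and 1198, 865, 1019, 1165 and 608 TPM in E (log2 difference -2.09 ± 0.40, adjusted p = 0.00287). The Y mice held far less than any E mouse of both, and 11 of 14 tested Lce1 genes were lower in Y and 0 higher, with a median of -1.89. The member with the smallest difference, Lce1m, overlapped between groups, at 4.61, 10.7 and 19.9 TPM in Y and 22.3, 16.1, 37.5, 12.8 and 9.53 TPM in E (log2 difference -0.81 ± 0.62, adjusted p = 0.454). Lce1 genes are near copies in a row, 6 adjacent ones of which were called, so how reads were shared among them is uncertain. For the 6 Lce3 genes 0 were called by limma (2 at an unadjusted p below 0.05) and the median was -0.60.

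Sprr genes, which encode cross-bridging proteins of the same envelope, had called genes in the opposite direction only. Sprr2f measured 656, 427 and 489 TPM in Y and 5.24, 126, 50.97, 0.533 and 12.5 TPM in E (log2 difference 5.40 ± 1.23, adjusted p = 0.00862). The call was lost with either of median-of-ratios scaling or quantile normalization. Sprr2g measured 667, 496 and 359 TPM in Y and 30.4, 90.7, 118, 29.5 and 20.995 TPM in E (log2 difference 3.42 ± 0.59, adjusted p = 0.00137). Sprr2i measured 746, 298 and 296 TPM in Y and 11.1, 136, 72.1, 5.75 and 19.6 TPM in E (log2 difference 3.94 ± 0.81, adjusted p = 0.00454). All Y mice were above all E mice, among which E2 and E3 were the highest for each. These 3 were the called genes of 15 tested Sprr genes (3 higher, 0 lower, median 1.68), and Sprr2d and Sprr2e, at 4.81 and 5.86 with adjusted p = 0.0125 and 0.0203, missed the threshold. Reads within Sprr2 are uncertain for the same reason as in Lce1.

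Keratins differed in both directions. Krt10, the main keratin of suprabasal keratinocytes in cornifying epithelia, measured 149, 149 and 116 TPM in Y and 819, 462, 589, 829.6 and 559 TPM in E (log2 difference -2.21 ± 0.44, adjusted p = 0.00384). Krt19, a keratin of simple epithelia, measured 36.5, 22.3 and 40.8 TPM in Y and 0.697, 0.495, 0.252, 1.62 and 1.44 TPM in E (log2 difference 5.25 ± 0.50, adjusted p = 1.1e-05). Krt17, a keratin of stressed and proliferating epithelium, measured 3378, 2460.4 and 2953 TPM in Y and 825, 1290.02, 1273, 853 and 836 TPM in E (log2 difference 1.55 ± 0.24, adjusted p = 6.5e-04). Krt10 was thus low and Krt17 and Krt19 were high in all Y mice, without overlap. Of 12 basal and suprabasal keratins 3 were lower (Krt10, Krt78 and Krt24) and 0 higher, with a median of -0.54, and of 9 stress and simple-epithelium keratins 2 were higher and 0 lower, with a median of 0.64 that is -0.36 in the mice without Xist. Hair-type keratins had the second lowest median of all lists, -2.02, with all 11 genes below 0 but 0 called by limma (9 at an unadjusted p below 0.05). Among them Krt36 measured 1565, 2813 and 3130.2 TPM in Y and 13459, 6473, 6654, 9731 and 7730.3 TPM in E, without overlap of the groups (log2 difference -1.82 ± 0.52, adjusted p = 0.0297). Keratin-associated proteins behaved alike, with a median of -2.14 over 24 genes, all below 0, and 1 called, Krtap3-2, at 228, 469 and 603 TPM in Y and 2535, 1019, 895, 2567 and 1560.2 TPM in E (log2 difference -1.96 ± 0.44, adjusted p = 0.00807).

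Other envelope genes went both ways. Tchh, which encodes trichohyalin of papillae and hair sheaths, measured 437, 212 and 440.3 TPM in Y and 2267, 1101, 1741, 1389.9 and 1109 TPM in E (log2 difference -2.09 ± 0.40, adjusted p = 0.00292). Casp14, the caspase of cornification, measured 100.2, 55.9 and 59.2 TPM in Y and 19.6, 27.1, 38.4, 34.8 and 32.7 TPM in E (log2 difference 1.22 ± 0.23, adjusted p = 0.00287, lost with quantile normalization). They were the 1 lower and the 1 higher gene of 16 tested, with a median of -0.96. Dsg1a and Dsc1, desmosomal cadherins of the upper layers chosen after their values were seen, were lower in Y, at 115, 98.9 and 130.3 TPM in Y and 262, 289, 307, 309.6 and 386 TPM in E for Dsg1a (log2 difference -1.43 ± 0.23, adjusted p = 8.3e-04) and at 186, 96.8 and 134 TPM in Y and 295, 391, 391, 299 and 435 TPM in E for Dsc1 (log2 difference -1.41 ± 0.30, adjusted p = 0.00521). Among 28 squamous transcription factors 2 were higher and 0 lower, with a median of -0.25 (-0.45 to -0.08 over the alternatives). Of the higher genes, Elf3 is an ETS factor of epithelial differentiation and measured 105, 88.3 and 106 TPM in Y and 21.9, 19.2, 17.7, 23.8 and 46.7 TPM in E (log2 difference 2.04 ± 0.26, adjusted p = 1.3e-04). The other was Hopx (log2 difference 1.17 ± 0.26, adjusted p = 0.00735, lost after median-of-ratios scaling). Hoxc13 and Pax9, factors needed for hair keratin genes and for filiform papillae, were lower in each Y mouse than in any E mouse but missed the threshold (log2 difference -1.54 ± 0.41, adjusted p = 0.0210 and log2 difference -0.72 ± 0.18, adjusted p = 0.0137).

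The actin genes that were called were all higher in Y. Actn1, an actin cross-linker, measured 11.5, 5.93 and 8.49 TPM in Y and 1.05, 2.74, 1.51, 1.04 and 1.55 TPM in E (log2 difference 2.41 ± 0.32, adjusted p = 1.7e-04). Cnn3, a calponin that binds actin, measured 34.7, 27.4 and 39.05 TPM in Y and 5.96, 12.7, 10.1, 5.76 and 9.29 TPM in E (log2 difference 1.98 ± 0.24, adjusted p = 8.5e-05). Both were several times higher in the Y mice, without overlap. With Tpm4 (log2 difference 1.07 ± 0.14, adjusted p = 1.4e-04, lost after median-of-ratios scaling) they made 3 higher and 0 lower of 25 tested actin genes, with 23 above 0 and a median of 0.63 that was 0.22 in the mice without Xist. Itgb1, the beta1 integrin subunit, measured 26.7, 36.98 and 37.6 TPM in Y and 12.4, 20.6, 13.1, 17.6 and 10.8 TPM in E (log2 difference 1.20 ± 0.20, adjusted p = 8.3e-04). It was the called gene of 17 hemidesmosome, laminin and integrin genes, of which 10 were above 0. Their median of 0.07 turned negative in 4 of 21 alternatives, with median-of-ratios scaling and voom among them, and was lowest, at -0.09, in the mice without Xist. Cdh3, for P-cadherin, was the called gene of 13 EMT genes (log2 difference 1.12 ± 0.23, adjusted p = 0.00416, list median -0.31). In the protease and plasminogen list 2 of 20 were higher and 0 lower (median -0.14). They were Timp3, an inhibitor of metalloproteinases (log2 difference 3.35 ± 0.70, adjusted p = 0.00492), and Serpinb2, the plasminogen activator inhibitor PAI-2 (log2 difference 1.64 ± 0.34, adjusted p = 0.00489).

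Cholesterol synthesis was the list with the most genes called relative to its size in the upward direction, 13 of 20 higher in Y and 0 lower, against 1.86% of all genes, and all 20 were above 0 with a median of 1.05 (0.97 after median-of-ratios scaling). Idi1, which isomerizes isopentenyl diphosphate, measured 128, 166 and 139 TPM in Y and 33.6, 42.5, 39.8, 45.8 and 44.02 TPM in E (log2 difference 1.81 ± 0.15, adjusted p = 2.1e-06). Hmgcs1, which makes HMG-CoA, measured 219, 287 and 265 TPM in Y and 77.4, 99.7, 101, 131 and 113 TPM in E (log2 difference 1.31 ± 0.15, adjusted p = 5.3e-05). Sqle, squalene epoxidase, measured 77.3, 63.9 and 66.01 TPM in Y and 23.5, 30.1, 37.2, 23.3 and 29.3 TPM in E (log2 difference 1.28 ± 0.15, adjusted p = 6.9e-05). The values within each group were tight and the groups well apart. None of the 17 cholesterol gene promoters of the table held GGAATG, beside 12.6% of the promoters of genes tested. Other small lists also held none, among them antigen presentation (13 promoters) and Wnt ligands and targets (11), so no meaning is read into it.

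Glycolysis genes were next, with 8 of 19 higher and 0 lower and a median of 0.85. Slc2a3, the glucose transporter GLUT3, measured 2.05, 1.33 and 4.90 TPM in Y and 0.119, 0.202, 0.196, 0.0634 and 0.178 TPM in E (log2 difference 3.34 ± 0.50, adjusted p = 4.6e-04). Slc16a3, the lactate exporter MCT4, measured 14.9, 12.9 and 24.04 TPM in Y and 2.34, 4.24, 3.14, 1.30 and 3.80 TPM in E (log2 difference 2.56 ± 0.52, adjusted p = 0.00416). Pgk1, phosphoglycerate kinase, measured 251, 319.6 and 279.9 TPM in Y and 73.9, 109, 89.2, 95.7 and 88.5 TPM in E (log2 difference 1.64 ± 0.13, adjusted p = 1.2e-06). Y3 held the highest value of both transporters, and no Y mouse overlapped the E mice. Gapdh, often used as a reference gene, measured 2196, 1494 and 1985 TPM in Y and 757, 810.1, 725, 695 and 657 TPM in E (log2 difference 1.36 ± 0.22, adjusted p = 7.0e-04). Aldoc, Ldha, Pkm and Eno1 were the others called, with log2 differences from 1.07 to 1.49, and Eno1 lost its call after median-of-ratios scaling and with voom.

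**Figure D4:**
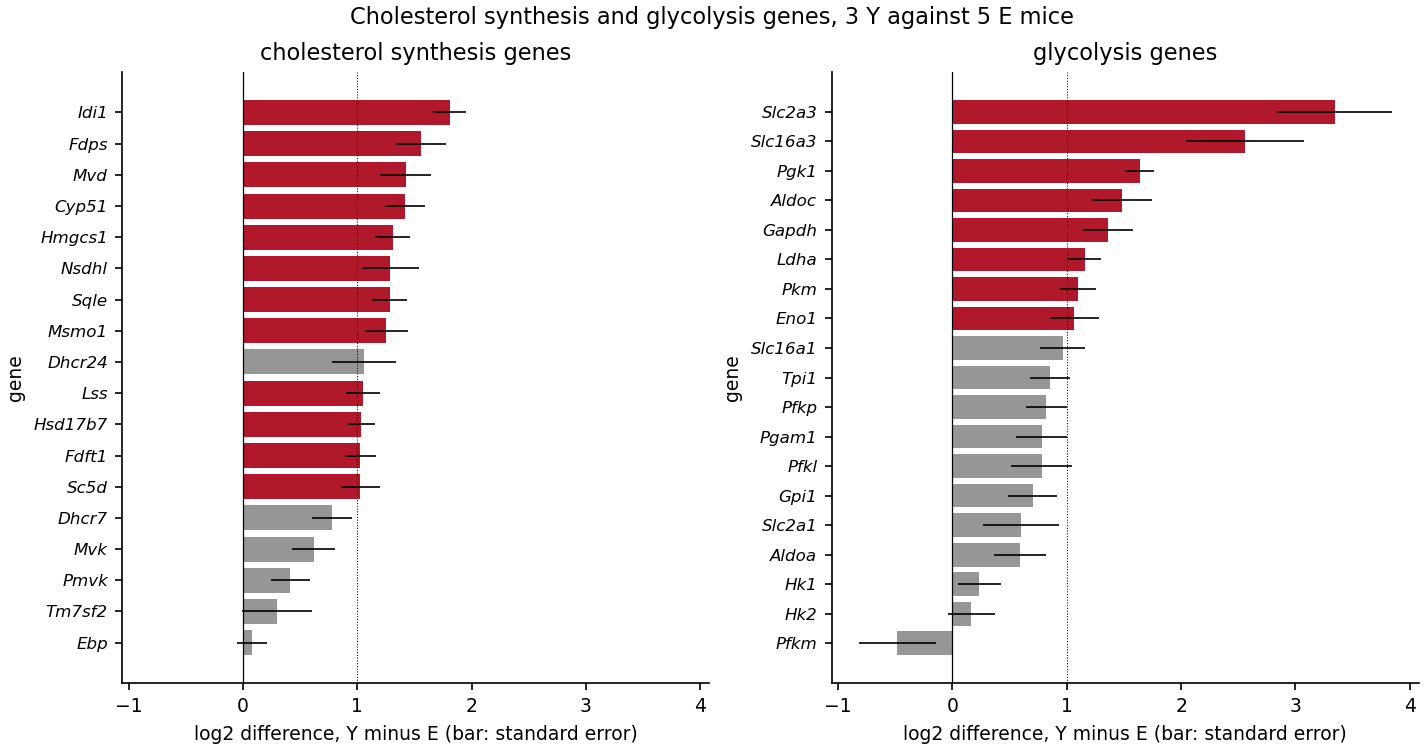
Bars are log2 differences Y minus E (3 Y and 5 E mice) of the cholesterol synthesis and glycolysis genes, thin lines are standard errors, the dotted line marks the limit of 1, and red bars are called genes. Not every gene of the cholesterol list is drawn; those drawn all lie above 0, from Ebp at 0.08 to Idi1 at 1.81.

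Lists related to growth follow. All 20 ribosome biogenesis genes were above 0, with a median of 0.68 and 3 called higher (Dkc1, Nop16 and Wdr12, each at 1.01 to 1.06 and each lost after median-of-ratios scaling). Psat1, of serine synthesis, measured 67.97, 67.4 and 87.9 TPM in Y and 26.6, 29.1, 29.97, 41.2 and 28.5 TPM in E (log2 difference 1.26 ± 0.15, adjusted p = 5.5e-05). With Psph, whose call was lost with all 3 scalings, it made 2 higher and 0 lower of 15 amino acid transport and serine synthesis genes (median 0.57). The 87 cytosolic ribosomal protein genes had a median of 0.40 and the 13 mitochondrially encoded genes one of 0.34 (0.23 to 0.73 and 0.04 to 0.93 over the alternatives), with 0 called by limma in either (48 and 1 at an unadjusted p below 0.05). Gsta3, a glutathione transferase, measured 22.2, 20.6 and 18.7 TPM in Y and 1.92, 1.16, 1.74, 3.84 and 1.83 TPM in E (log2 difference 3.33 ± 0.35, adjusted p = 2.4e-05). With Gsta4 it made 2 higher and 0 lower of 20 xenobiotic and aldehyde metabolism genes (median -0.17).

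Interferon-stimulated genes had a median of -1.16 over 32 genes with 31 below 0, yet 0 were called by limma (4 at an unadjusted p below 0.05). Isg15, a ubiquitin-like protein induced by interferon, measured 126, 169 and 482 TPM in Y and 154, 1129, 773, 109 and 1365 TPM in E (log2 difference -1.07 ± 0.88, adjusted p = 0.490). Oasl2 measured 9.47, 8.18 and 35.8 TPM in Y and 22.6, 93.6, 77.8, 11.4 and 148 TPM in E (log2 difference -1.79 ± 0.78, adjusted p = 0.161). E2, E3 and E5 were high while E1 and E4 were at the level of the Y mice, and Y3 was the highest Y mouse. The 16 antigen presentation genes had a median of -0.51 and 0 called by limma (1 at an unadjusted p below 0.05).

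The remaining signalling lists held few called genes. Wnt9a was the called gene of 16 Wnt ligands and targets (log2 difference 1.92 ± 0.34, adjusted p = 0.00158). Their list median of 0.01 turned negative in 14 of 21 alternatives, with median-of-ratios scaling, quantile normalization and voom among them. Phlda1 was the called gene of 18 ERBB and MAPK feedback genes (log2 difference 1.31 ± 0.28, adjusted p = 0.00533, list median 0.10, call lost after median-of-ratios scaling). EGF family ligands (9 tested, median -0.06), AP-1 genes (10, -0.21), Notch pathway genes (15, -0.10) and PRC2 and DNA methylation genes (12, -0.14) had 0 called by limma, with 4, 0, 2 and 4 at an unadjusted p below 0.05.

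**Figure D5:**
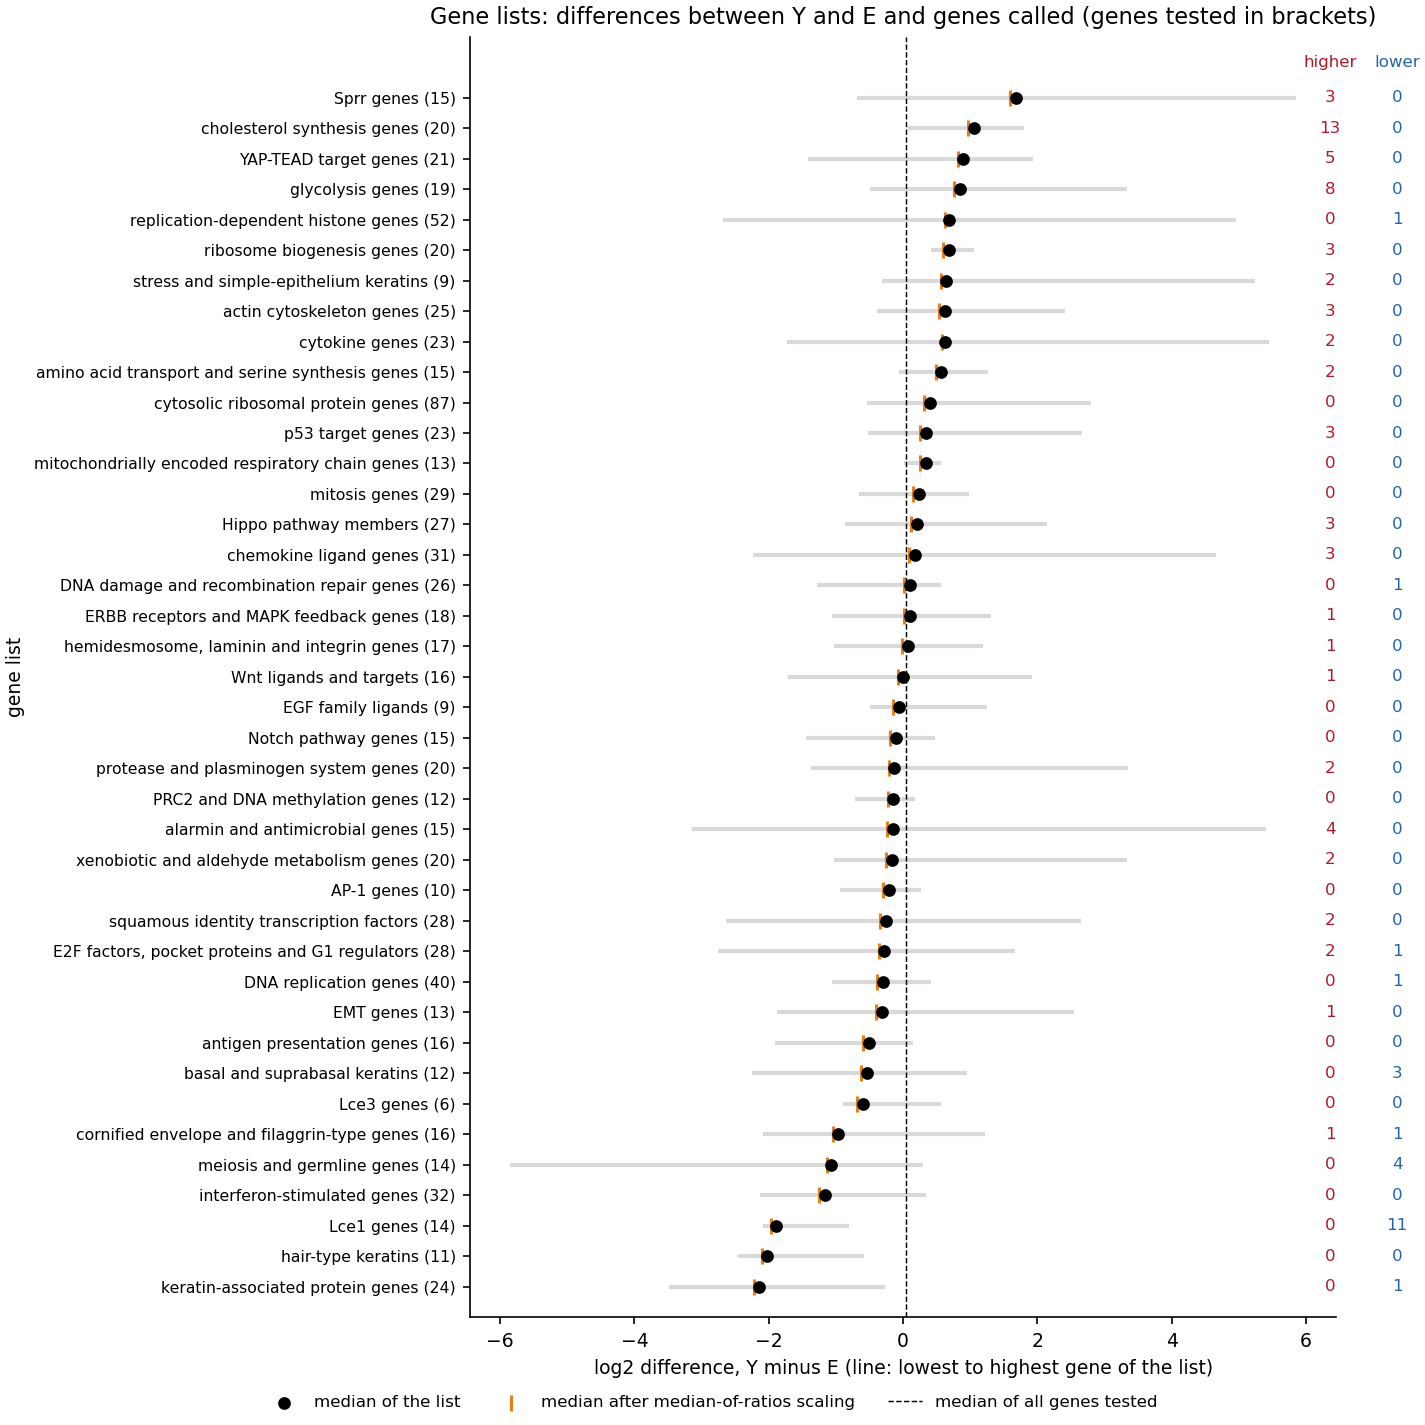
For each gene list that is not a cell type list (genes tested in brackets) the black point is the median log2 difference Y minus E, the orange tick the same after median-of-ratios scaling, the grey line the span from the lowest to the highest gene, and the dashed line the median of all genes tested; red and blue figures count genes called higher and lower in Y. Of the lists drawn, Sprr and cholesterol synthesis genes have the highest medians (1.68 and 1.05), keratin-associated protein and hair-type keratin genes the lowest (-2.14 and -2.02).

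The next genes are outside the lists and were chosen after their values were seen, so they support no group. Anxa1, an annexin that resolves inflammation, measured 933, 1171 and 872 TPM in Y and 99.1, 325, 195, 234 and 335 TPM in E (log2 difference 2.17 ± 0.29, adjusted p = 1.7e-04). S100a10, the partner of annexin A2, measured 404, 447 and 325 TPM in Y and 55.6, 82.03, 56.5, 136 and 78.6 TPM in E (log2 difference 2.33 ± 0.26, adjusted p = 4.3e-05). Anxa2, Anxa3, S100a6 and S100a11 were higher as well, with log2 differences of 1.72, 4.10, 2.14 and 1.53, and the Y and E mice did not overlap for any of the 6. Tnfaip3, a feedback inhibitor of NF-kB, measured 40.9, 28.1 and 31.8 TPM in Y and 3.12, 4.09, 4.11, 4.99 and 7.70 TPM in E (log2 difference 2.83 ± 0.27, adjusted p = 1.1e-05). Nfkbia, another such inhibitor, differed less (log2 difference 1.05 ± 0.21, adjusted p = 0.00402, lost after median-of-ratios scaling, with voom and with Xist as a covariate). All Y mice were above all E mice for both. Ptgs2, the inducible cyclooxygenase, measured 174, 60.99 and 55.3 TPM in Y and 3.01, 16.6, 11.99, 17.4 and 22.9 TPM in E (log2 difference 2.80 ± 0.63, adjusted p = 0.00776). Its call was lost with quantile normalization, after median-of-ratios scaling, with Xist as a covariate and without any 1 of the Y mice. Il17c, an epithelial cytokine, measured 7.57, 10.6 and 9.68 TPM in Y and 0.338, 1.20, 0.815, 0.413 and 0 TPM in E (log2 difference 4.26 ± 0.90, adjusted p = 0.00537). The mice did not overlap here either, and Y1 held by far the most Ptgs2.

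Further genes chosen in the same way were higher in Y. Igf2bp1, a fetal RNA-binding protein, measured 3.05, 2.77 and 3.17 TPM in Y and 0.101, 0.0531, 0.216, 0.0548 and 0.103 TPM in E (log2 difference 3.96 ± 0.31, adjusted p = 1.2e-06). The imprinted noncoding RNA H19 measured 743, 1336 and 1033 TPM in Y and 65.4, 75.3, 83.5, 100.3 and 73.4 TPM in E (log2 difference 3.68 ± 0.36, adjusted p = 1.3e-05). Edn1, the vasoconstrictor endothelin-1, measured 70.4, 94.7 and 52.7 TPM in Y and 1.35, 3.18, 3.54, 2.67 and 4.72 TPM in E (log2 difference 4.57 ± 0.34, adjusted p = 1.2e-06). H19 was also present in E, and in N it ranged from 85.6 to 289.5 TPM. Plet1, a surface protein of placental and epithelial progenitors, measured 47.2, 67.7 and 44.8 TPM in Y and 1.45, 5.50, 1.44, 1.40 and 2.29 TPM in E (log2 difference 4.59 ± 0.40, adjusted p = 3.7e-06). Its antisense neighbour Plet1os moved with it (log2 difference 4.44 ± 0.46, adjusted p = 2.2e-05), with the caveat that the strand of the libraries is not stated. Klk6, a secreted serine protease, measured 30.7, 20.8 and 14.3 TPM in Y and 0.291, 1.12, 0.613, 0.799 and 0.916 TPM in E (log2 difference 4.73 ± 0.51, adjusted p = 3.3e-05). Muc21, a transmembrane mucin, was listed at 0 in all E mice and at 0.166, 1.53 and 1.57 TPM in the Y mice, and it passed the filter only through the Y mice. Dbp, an output gene of the circadian clock, was lower in Y, at 10.996, 11.4 and 15.1 TPM in Y and 91.2, 71.9, 62.01, 30.98 and 33.8 TPM in E (log2 difference -2.10 ± 0.36, adjusted p = 0.00141), and so were Per3 and Nr1d2, at log2 differences of -1.01 and -1.14. No list of clock genes was tested, and the hour of collection is not given.

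The remaining largest increases were less well known genes. Pbp2, of a phosphatidylethanolamine-binding family, measured 122, 77.03 and 108 TPM in Y and 1.29, 10.1, 5.16, 0.523 and 0 TPM in E (log2 difference 6.21 ± 1.02, adjusted p = 8.5e-04). Ccnb1ip1, a ubiquitin ligase with a role in meiotic crossovers, measured 4.95, 3.09 and 5.69 TPM in Y and 0, 0, 0, 0 and 0.543 TPM in E (log2 difference 4.97 ± 1.13, adjusted p = 0.00854), which is the reverse of the direction of the other meiosis genes named. The predicted gene Gm16074 measured 9.77, 8.60 and 7.37 TPM in Y and 0, 0, 1.49, 0 and 0 TPM in E (log2 difference 5.63 ± 1.12, adjusted p = 0.00369). Apart from E3 for Gm16074 and E5 for Ccnb1ip1 the E mice were at 0 for both. Gm10146, Gm4950 and Gm48014 were listed at 0 in all E mice, against 11.7, 2.06 and 2.12, 3.52, 3.10 and 3.19 and 3.33, 3.91 and 2.51 TPM in the Y mice. They passed the filter only through the Y mice. Their mean in N was 4.88, 2.20 and 0.618 TPM, and N was nearer to Y than to E for each, so these differences are low values in E more than increases over N.

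The N and EY mice, which do not enter the differences, place these genes further. Among the 385 genes higher in Y, the mean of N was nearer to E in 375 and nearer to Y in 10, and the mean of EY was above both in 268, between them in 116 and below both in 1. Among the 196 genes lower in Y, N was nearer to E in 153 and nearer to Y in 43, and EY was below both in 133, between in 46 and above both in 17. Krt10 shows the pattern of a gene lowest in EY, with a lowest, median and highest value there of 4.22, 15.2 and 23.3 TPM. Amotl2 shows one with the mean of EY above both, at 50.5, 71.2 and 75.1 TPM in EY, although EY and Y mice overlap. Stag3 and Cdkn1c belong to the 43 genes for which N was nearer to Y, and N ranged from 4.50 to 18.7 TPM for Cdkn1c.

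All 581 calls kept their sign with Xist as a covariate, but the number called fell to 340 (220 higher, 120 lower). Without Y3 it was 275 and without Y2 it was 336. The fit of the mice without Xist has a lone Y mouse, assumed to vary like the other groups. Its signs are no separate check, since that mouse, Y2, took part in the calls and was compared with the same E mice. Over all alternatives, the median stayed within 1.5-fold of its value in 9 of the 40 lists that are not cell type lists (DNA replication, p53 targets, interferon-stimulated genes, Lce1, cornified envelope, hair-type keratins, glycolysis, cholesterol synthesis and ribosome biogenesis). In the others it moved further or changed sign. Not every lost call is noted beside its gene above, and a lost call need not mean a smaller difference. Of the 120 named genes that were called, median-of-ratios scaling lost 12 genes (Sprr2f, Dock5, Hopx, Tpm4, Eno1, Psph, Dkc1, Nop16, Wdr12, Phlda1, Nfkbia and Ptgs2). Quantile normalization lost 15 genes (Sprr2f, Fjx1, Casp14, Krtap3-2, Hopx, Tpm4, Serpinb2, Pkm, Psph, Dkc1, Nop16, Wdr12, Gsta4, Phlda1 and Ptgs2). The fit with voom lost 20 genes (Gm10146, Ccnb1ip1, Gm14180, Ighv1-62, Cryba2, Gm49768, Gm49201, Tpm4, Cxcl1, Il24, Lcn2, Timp3, Eno1, Psph, Dkc1, Nop16, Wdr12, H4c12, Nfkbia and Gpc2). The Xist covariate lost 43 genes (Gm16074, Sprr2f, Gm10146, Ccnb1ip1, Gm14180, Ighv1-62, Gm52952, Cryba2, Gm49768, Gm49201, Axl, Dock5, Prim1, Rad51c, Lce1l, Casp14, Krt10, Krt78, Krt24, Krtap3-2, Sprr2g, Sprr2i, Hopx, Cdh3, Cxcl1, Il24, Lcn2, Defb14, Timp3, Serpinb2, Slc16a3, Aldoc, Eno1, Psph, Wdr12, Gsta4, H4c12, Wnt9a, Nfkbia, Muc21, Gpc2, Ptgs2 and Il17c), but 38 of these still differed by more than 1 on the log2 scale. A variance from only the 8 mice lost 55, leaving out Y1, Y2 or Y3 lost 39, 39 and 49, and using only the mice without Xist lost 105.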

How the data were processed

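Whole tongue epithelium of 19 mice was profiled by polyA-selected RNA sequencing 15 days after induction. The authors deposited TPM values for 24689 genes, from reads aligned to GRCm39 with STAR 2.7.9, sorted with SAMtools 1.7 and counted with HTSeq 0.13.5; how counts became TPM is not stated. Each library sums to 1000000 TPM, so depth is not given. Read numbers recovered from the TPM, within 0.001 of whole numbers, run from 8269674 to 9482472 in the 8 Y and E mice and limit the precision of genes near 0.

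Differences between Y and E were fitted on log2(TPM + 0.1) with limma 3.58.1 (lmFit, eBayes with trend) in R 4.3.3, with a mean for each of N, E, Y and EY over all 19 mice, for genes at 0.1 TPM or more in 3 of the 8 mice. Genes with p (adjusted by Benjamini-Hochberg over all genes tested) below 0.01 whose log2 difference exceeded 1 in size were called. Named are the 12 largest increases and the 12 largest decreases among called genes without overlap between Y and E mice, members of the gene lists, genes of the transgene pathways, and genes marking sex; other genes are said to be chosen after their values were seen. The mice compared and the gene lists were chosen with earlier results of these data known. Lists are described by counts and medians, without a test. Tables and figures used Python 3.11.15, pandas 2.3.3, numpy 2.4.6, scipy 1.17.1 and matplotlib 3.10.9, promoters are from RefSeq on GRCm38.p6, and 0 columns of the table were left unmapped. The fit was tested on simulated data.

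Alternatives were a pseudocount of 1 or 0.01 TPM, a filter of 1 TPM or nearly none, median-of-ratios scaling, quantile normalization, voom on recovered reads, only the 8 mice, the mouse number as a replicate block, robust eBayes, covariates for muscle markers or Xist, the difference left without a limit, adjusted p limited to 0.05, 2000 genes for the components, and leaving out each Y or E mouse. A fit of only the mice without Xist was added after seeing the data.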

Additional observations from a re-analysis of the deposited data

Results flagged for a closer look

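In the E mice, 19 of 165 sets of 5 values had a mouse far from the others by Dixon's test of the gap to the nearest value against the whole range, and chance alone gives about 1 in 20 where values are spread normally. TPM near 0 are not, and a set with only 1 value above 0, as for Gm16074, Ccnb1ip1 and Il24, is always flagged, so no excess over chance is claimed. Groups of 3 were not tested. In E5 the skeletal muscle markers summed to 199 TPM, Ccnb1ip1 measured 0.543 TPM, Trp53 18.5 TPM, Elf3 46.7 TPM, Timp3 0.625 TPM and Mvd 6.77 TPM, each far from the other E mice (Trp53 and Mvd below them, the rest above). E2 stood above the others for Gm52952 at 27.3 TPM, Il24 at 3.49 TPM, Anxa3 at 2.23 TPM, Plet1 at 5.50 TPM and Plet1os at 2.93 TPM. E3 stood above the others for Gm16074 at 1.49 TPM and Tnfsf18 at 0.806 TPM. E1 stood below the others for Ighv1-62 at 1.23 TPM, Ccne2 at 12.7 TPM and Serpinb2 at 27.4 TPM. E4 stood above the others for Psat1 at 41.2 TPM, Gsta3 at 3.84 TPM and S100a6 at 267 TPM. The cause of these values was not tested.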

How the results depend on the processing

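The 581 called genes kept their sign with median-of-ratios scaling, quantile normalization, voom and Xist as a covariate, and 422 were called under all 3 scalings. Signs with only the 8 mice are fixed, since leaving out N and EY does not change the Y and E means. In the mice without Xist they are no separate check, since Y2 took part in the calls. With only the 8 mice 223 genes were called (137 higher, 86 lower), with Xist as a covariate 340 (220 and 120), in only the mice without Xist 36 (26 and 10), at an adjusted p below 0.05 1051 (597 and 454) and with no limit on the difference 1045 (791 and 254). The share higher in Y, 66.3%, was 55.3% after median-of-ratios scaling, 57.9% after quantile normalization, 56.1% with voom, 61.4% with the 8 mice, 72.2% in the mice without Xist, 56.8% at an adjusted p below 0.05 and 75.7% with no limit on the difference. Leaving out a mouse gave 275 to 551 calls (191 to 392 higher, 84 to 160 lower) and shares of 67.0 to 75.0%. The library left out mattered most for Y3 (275 calls, 191 higher, 84 lower), Y2 (336, 250 and 86) and Y1 (113 lower). The first component held 21.2% of the variance, 28.5% with a pseudocount of 1 TPM, 19.2% with 0.01 TPM and 21.96 to 24.9% without 1 mouse. The cause of these shifts was not tested, except that fewer mice leave less power by construction.

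Of the 120 named genes that were called, 14 kept the call under every alternative fit that tested them (Gm4950, Stag3, Meiosin, Ajm1, Zcwpw1, Tdrd1, Amotl2, Pgk1, Idi1, Plet1, Klk6, Igf2bp1, H19 and Edn1), 106 lost it under 1 or more and 0 reversed. The genes that reversed were not called. Yap1 ran from -0.24 to 0.032 without 1 mouse (0.032 without Y2) and was -0.49 in the mice without Xist. Wwtr1 ran from -0.0089 to 0.18 without 1 mouse (-0.0089 without Y3), and it came to -0.0046 under median-of-ratios scaling and -0.065 under the Xist covariate. Trp53 was -0.024 under quantile normalization, -0.028 with the replicate block and -0.19 in the mice without Xist. Xist was -0.071 in the mice without Xist, which leave out the mice that express it. List medians kept their sign under every alternative in 34 of 52 lists and changed it in 18. Among the latter are the Wnt, integrin, chemokine, alarmin, stress keratin, EMT, ERBB and MAPK, EGF family, DNA repair, protease and xenobiotic lists, and cell type lists make up the rest. The mouse number as a replicate block gave 432 calls (282 higher, 150 lower); Y and E mice of equal number are not paired, with correlations of their deviations of -0.05, -0.02 and 0.01.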
